A study of Mus musculus with 2 samples.

Results

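The genes described here encode the laminins and the integrins, the chains of a basement membrane protein family and of its main cell surface receptors. They were taken by name from a table of the authors' own comparisons of cell clusters, as every gene named laminin alpha, beta or gamma (Lama, Lamb, Lamc and a digit) or integrin alpha or beta (Itga, Itgb and a suffix), leaving out the integrin-binding proteins and Itgbl1, whose names only resemble them. This gave 37 genes of the 18319 named in the table, 11 laminin chains and 26 integrin chains. The cells came from 2 tumors of injected dysplastic stem cells of the mouse, called DP-DSC in the labels, in female NuJ hosts, an athymic nude strain that has few mature T cells. A cystic adenocarcinoma collected at 10 weeks after the injection and a tubular adenocarcinoma collected at 13 weeks gave 1 library each, made from dissociated fresh tumors on the inDrop droplet platform. Both groups share the injected cells, the strain and the sex, and no library of untreated stomach or of the injected cells was analysed here.

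The table gives cluster numbers and no tumor type, so cystic and tubular tumors could not be compared. Each type had a single library and no replicate, so none of the values carries an error across animals or a test. For each of 11 clusters the table lists genes with a linear fold above 1.5 and a p-value, without naming the reference of the fold, and the clusters' comparisons may share their reference cells. Below, a listed gene is any gene that the table holds for a cluster, and a raised gene is one with a deposited fold of 2 or more whose deposited p does not exceed 0.05. The number of cells and transcripts behind each cluster was not analysed here, so the depth of each fold is unknown, and a fold says nothing of how abundant a transcript is. A gene not listed in a cluster may have been lower there, alike or not measured. From marker genes, clusters 4 (7 of 7 macrophage genes raised) and 11 (6 of 6 fibroblast genes) were macrophage-like and fibroblast-like. Cluster 8 had 7 of 7 macrophage and 5 of 6 dendritic cell genes raised, cluster 10 had 6 of 6 neutrophil genes, 5 of 6 named T and NK cell genes and 3 of 7 macrophage genes raised (all 7 listed), and clusters 6 and 9 each had 5 of 5 named gastric surface mucous genes raised. Cluster 2 had 5 of 5 named red cell genes raised, and cluster 5 had 2 of 5 named mast cell genes raised (Cpa3 and Tpsb2, with Mcpt2 listed only, and Kit and Mcpt1 not listed) and 1 of 9 general epithelial genes raised (Cdh1), with 5 of the 9 listed. Clusters 6 and 9 had 5 of the 9 general epithelial genes raised each. Cluster 3 had 4 of the 9 and 2 of 5 named surface mucous genes raised, and did not list Epcam or Cdh1. Clusters 3, 6 and 9 are called epithelial below. Cluster 7 had 2 of the 9 general epithelial genes raised, and cluster 1 listed 5 of 5 named red cell genes with 0 raised. The labels call the cells of both libraries tumor cells, while clusters 4, 8, 10 and 11 carried markers of white blood cells and fibroblasts.

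Laminins are trimers of an alpha, a beta and a gamma chain that assemble into the sheet on which epithelium, endothelium, muscle and nerve rest, and trimers are named by their chain numbers. Integrins are pairs of an alpha and a beta chain that span the cell membrane, bind matrix or other cells outside, and connect to the cytoskeleton through talin, kindlin and related adaptors inside. In the stomach, integrin alpha 6 beta 4 and alpha 3 beta 1 hold epithelial cells to laminin, while the beta 2 integrins are restricted largely to white blood cells.

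At least 1 cluster had a raised fold for 28 of the 37 genes (75.7%), 10 laminins and 18 integrins, against 78.0% of all genes named in the table. Of these, 13 were raised in exactly 1 cluster (50.9% of all named genes were), 9 in 2 and 6 in 3. The 6 raised in 3 clusters were Lama5, Lamb1, Itga3, Itga5, Itgam and Itgb4, and over all named genes 4.75% were raised in at least 3 clusters. The 9 genes raised in no cluster were Lama1, Itga1, Itga9, Itga10, Itga11, Itga2b, Itgav, Itgb1 and Itgb3. The table held 99 pairs of a laminin or integrin gene and a cluster, of which 49 were raised. Of the other 50, 32 had a fold of at least 2 with a p above 0.05, 13 had a p within the limit and a smaller fold, and 5 met neither limit.

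**Figure D1:**
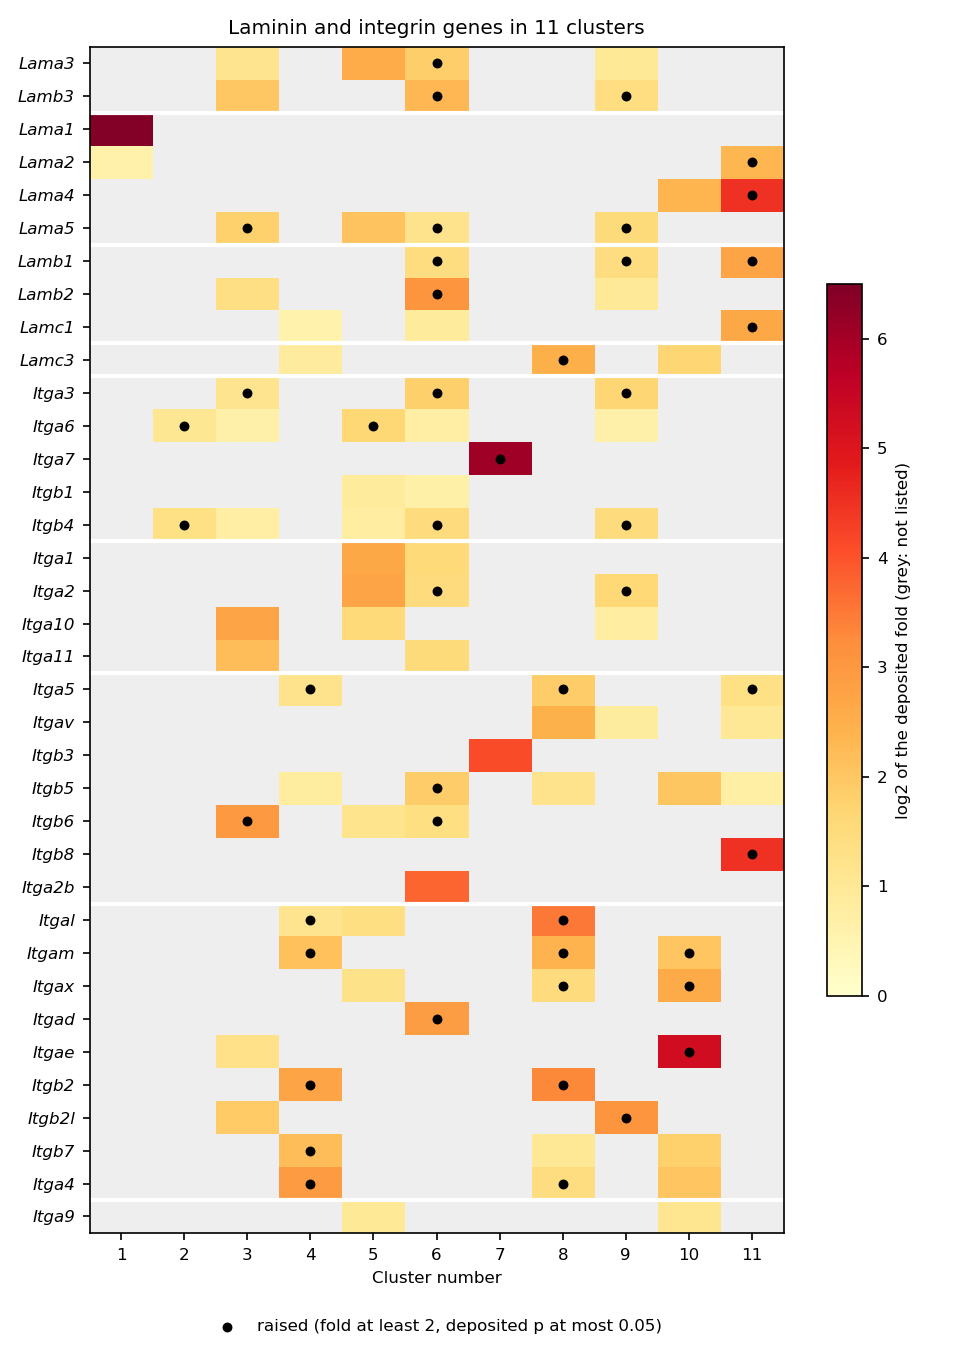
Deposited folds of 36 of the laminin and integrin genes (rows, grouped by chain type or ligand) in the 11 clusters (columns), coloured by log2 of the fold, with grey where a gene is not listed and a black dot where it was raised. Most dots fall in 3 blocks: laminin chains and their receptors in clusters 3, 6 and 9, laminin chains in cluster 11, and leukocyte integrins in clusters 4, 8 and 10.

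The share of these genes that was raised is read against the share of all 18319 named genes raised in the same cluster, which differed widely between clusters. In cluster 6, 12 of 37 (32.4%) were raised against 20.3% of all named genes, and in cluster 8, 7 of 37 (18.9%) against 6.36%. Cluster 3 had 3 genes raised (8.11%) against 4.001% of all named genes, in cluster 10 also 3 (8.11%) against 4.90%, and in cluster 2, 2 genes (5.41%) against 2.89%. The remaining clusters lay near or under their background. Cluster 9 had 8 genes raised (21.6%) against 26.6%, cluster 4 had 6 (16.2%) against 18.6%, and cluster 11 had 6 (16.2%) against 17.0%. Clusters 5 and 7 had 1 raised gene each (2.703%) against 4.32% and 3.42%, and cluster 1 had 0 of 37 against 1.82%. Counted as listed, whatever the p, the genes were above their background in clusters 6 (18 of 37, 48.6%, against 36.4% of all named genes), 5 (13, 35.1%, against 20.6%), 3 (13, 35.1%, against 29.9%) and 10 (9, 24.3%, against 18.9%). In cluster 8 the 10 listed genes made 27.0% against 26.4%. Listed genes were fewer than the background share in cluster 9 (13, 35.1%, against 38.9%), cluster 4 (9, 24.3%, against 31.5%) and cluster 11 (8, 21.6%, against 25.7%). Clusters 1, 2 and 7 listed 2 genes each (5.41%), against 6.34%, 9.07% and 12.1%.

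**Figure D2:**
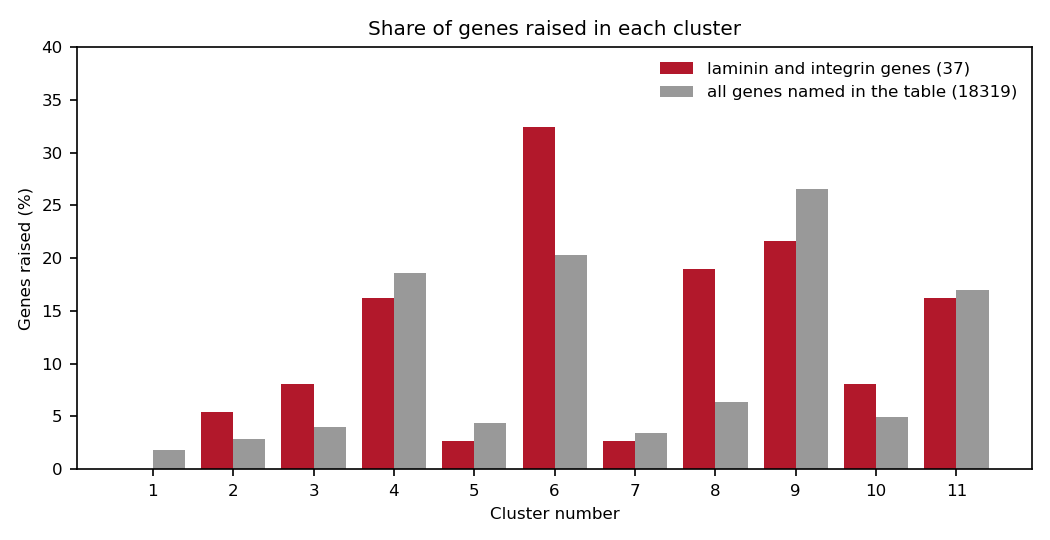
Percentage of genes raised in each cluster, for the 37 laminin and integrin genes (red bars) and for all 18319 genes named in the table (grey bars). The red bar stands above the grey one in clusters 2, 3, 6, 8 and 10, most widely in clusters 6 (32.4% against 20.3%) and 8 (18.9% against 6.36%).

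Promoter sequence is shown for 5 of the genes because they stand for the blocks of raised genes: Itgam and Itgax, neighbouring genes of white blood cells; Itga5, raised in macrophage and in fibroblast clusters; and Lama5 and Itga2, raised together in clusters 6 and 9. Each sequence is the 250 bases before the RefSeq start site on GRCm38.p6, read 5′ to 3′ on the gene's own strand. Capitals mark GAGGAA, a core bound by ETS factors such as PU.1 of white blood cells, GGGCGG, the GC box bound by Sp1, and TGANTCA, the AP-1 site, each on either strand. No base of the 5 windows lay in more than one motif. The genes shown were chosen with their folds known, among those whose window held at most 3 annotated exon bases.
Itgam, chr7:128062390-128062639, plus strand: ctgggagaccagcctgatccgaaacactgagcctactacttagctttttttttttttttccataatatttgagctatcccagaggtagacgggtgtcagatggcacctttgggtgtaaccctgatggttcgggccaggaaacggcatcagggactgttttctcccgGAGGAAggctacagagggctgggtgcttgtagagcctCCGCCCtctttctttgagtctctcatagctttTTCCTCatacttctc
Itgax, chr7:128129300-128129549, plus strand: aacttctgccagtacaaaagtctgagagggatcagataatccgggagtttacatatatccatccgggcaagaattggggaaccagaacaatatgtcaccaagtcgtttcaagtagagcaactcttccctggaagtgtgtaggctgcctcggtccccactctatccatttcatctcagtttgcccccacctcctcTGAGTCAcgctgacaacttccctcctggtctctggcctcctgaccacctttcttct
Itga5, chr15:103366792-103367041, minus strand: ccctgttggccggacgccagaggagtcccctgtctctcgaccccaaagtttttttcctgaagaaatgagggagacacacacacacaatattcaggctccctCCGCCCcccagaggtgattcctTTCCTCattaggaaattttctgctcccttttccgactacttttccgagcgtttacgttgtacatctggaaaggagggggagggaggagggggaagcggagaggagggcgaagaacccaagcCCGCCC
Lama5, chr2:180225860-180226109, minus strand: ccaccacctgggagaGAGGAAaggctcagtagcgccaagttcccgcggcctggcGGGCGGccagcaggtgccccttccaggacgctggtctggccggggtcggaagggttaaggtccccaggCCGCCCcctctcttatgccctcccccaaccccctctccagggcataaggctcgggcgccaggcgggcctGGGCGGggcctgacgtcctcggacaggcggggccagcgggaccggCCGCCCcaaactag
Itga2, chr13:114932101-114932350, minus strand: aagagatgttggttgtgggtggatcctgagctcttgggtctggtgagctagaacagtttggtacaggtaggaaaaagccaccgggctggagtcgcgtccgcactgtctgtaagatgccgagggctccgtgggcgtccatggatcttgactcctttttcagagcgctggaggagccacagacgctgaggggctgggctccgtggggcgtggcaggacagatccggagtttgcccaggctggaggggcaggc

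The window of Itgam held GAGGAA in 2 places, 84 and 15 bases before the start site, and GGGCGG 47 bases before it. That of Itgax held neither, and had TGANTCA 56 bases before the start site. Lama5 had the most GC-rich of the 5 windows (72.4% G and C, against a median of 52.4% over all promoters) and GGGCGG in 4 places. Itga5 had GGGCGG in 2 places and GAGGAA in 1, and the window of Itga2 held none of the 3 motifs. RefSeq windows were found for 23 of the 37 genes, 26 windows in all. GAGGAA stood in 14 of the 26 and in 23.3% of all 32851 windows of that length, GGGCGG in 9 of the 26 and in 32.7% of all, and TGANTCA in 1 of the 26 and in 6.75% of all. The motifs CATTCC, bound by TEAD factors, and TATAAA, the TATA box, stood in 3 and 0 of the 26 against 12.6% and 12.4% of all windows. These are matches of letters, and binding was not measured.

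Lamb3 and Lama3, a beta and an alpha chain of laminin-332, the trimer that anchors epithelial cells at hemidesmosomes, were both raised in cluster 6. By the authors' deposited table Lamb3 had a fold of 4.97 there and Lama3 3.59. In cluster 9 Lamb3 was raised at 2.64, while Lama3, at 1.96 by the authors' deposited table, was just under the fold limit. Cluster 3 listed both at folds of at least 2, Lamb3 at 3.98 and Lama3 at 2.24 by the authors' deposited table, neither with a p within the limit. Cluster 5 listed Lama3 at 5.92 by the authors' deposited table, without a p within the limit, and did not list Lamb3. The other 7 clusters listed neither chain. In each of clusters 3, 6 and 9 the fold of Lamb3 was the larger of the 2.

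Lama5, the alpha chain of laminin-511 and laminin-521 in the basement membrane of adult epithelia, was raised in clusters 3, 6 and 9. Its folds by the authors' deposited table were 3.47, 2.33 and 2.89, and it was listed at 4.20 in cluster 5 without being raised. By p it was the 57th of the 7131 genes listed in cluster 9, the 179th of 6664 in cluster 6 and the 224th of 5474 in cluster 3. Lamb2, the beta chain of laminin-521, had its largest fold in cluster 6, where it was raised at 8.33 by the authors' deposited table, above 93.7% of the genes listed there. It was listed in clusters 3 and 9 at 2.56 and 1.93 by the authors' deposited table, and was raised in neither. Lamc1, the gamma chain that laminin-511 and laminin-521 both need, was listed in cluster 6 at 1.86 by the authors' deposited table, under the fold limit, and was not listed in clusters 3 and 9. All chains of laminin-511 and laminin-521 were thus listed in cluster 6, with Lamc1 the one not raised.

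Cluster 11, the fibroblast-like one, had a different set of laminin chains. Lama4, an alpha chain of vessels and other mesenchymal tissue, was raised at 22.8 by the authors' deposited table, and Lama2, the main alpha chain around muscle and nerve, at 5.06. Lamb1 and Lamc1, the beta and gamma chains that both of these pair with, were raised at 6.61 and 6.31 by the authors' deposited table. All chains of laminin-411 and of laminin-211 were therefore raised there, while Lama3, Lamb3, Lama5 and Lamb2 were not listed. Of the 5 named endothelial markers, Kdr and Tek were raised in cluster 11 while Pecam1, Cdh5 and Cldn5 were not listed. Of the 6 pericyte markers, Acta2 and Pdgfrb were raised in cluster 11 and the other 4 were not listed. Cluster 9, called epithelial here, also had 2 of the 5 endothelial markers raised, Cdh5 and Cldn5. The part of these cell types in the laminin folds of clusters 9 and 11 was not tested.

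Lamb1 was raised in cluster 11 and in the epithelial clusters 6 and 9. Of all named genes, taken singly, 17.0%, 20.3% and 26.6% were raised in clusters 11, 6 and 9. The share raised in more than one of them together was not counted. Beside its 6.61 in cluster 11, its folds by the authors' deposited table were 2.68 in cluster 6 and 2.72 in cluster 9. In cluster 6 it stood far down by p, as the 3968th of 6664 genes.

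Lamc3, a gamma chain of few tissues, differed from the other laminins in being listed in white blood cell clusters alone. It was raised in cluster 8 at 5.61 by the authors' deposited table and listed at 1.84 in cluster 4 and at 3.19 in cluster 10. Lama1, the alpha chain of embryonic basement membranes, was listed in cluster 1 only, with the largest fold of any of the 37 genes, 86.8 by the authors' deposited table, and was not raised. Lama2 was listed there too, at 1.55 by the authors' deposited table.

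**Figure D3:**
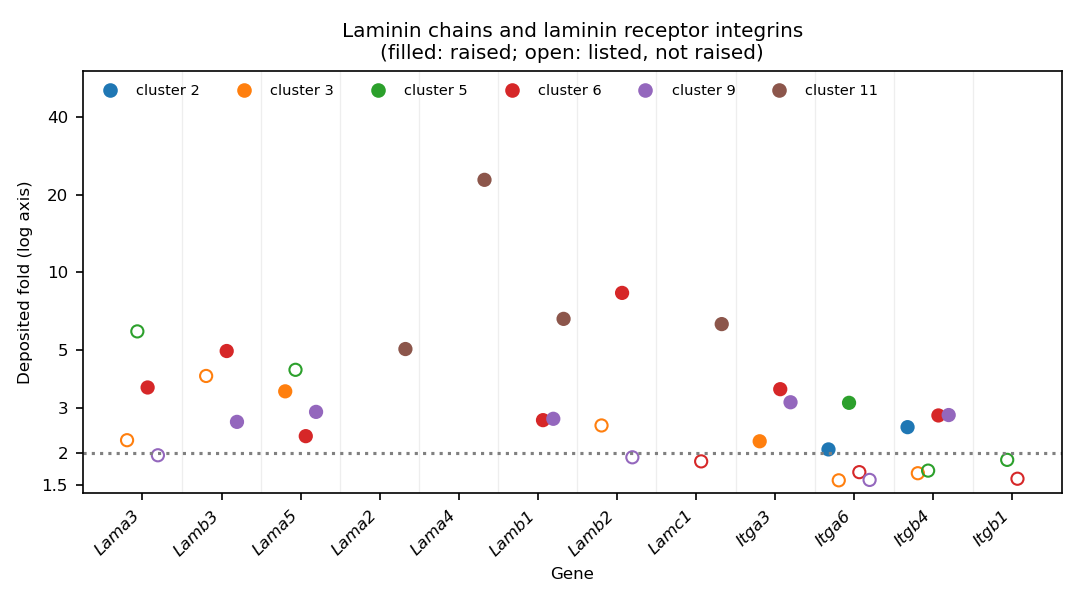
Deposited folds (log axis) of laminin chains and laminin receptor integrins in clusters 2, 3, 5, 6, 9 and 11, 1 point per cluster, filled where the gene was raised and open where it was listed only, with the fold limit of 2 dotted. Cluster 11 holds Lama2, Lama4, Lamb1 and Lamc1 at 5.06 to 22.8, and cluster 6 holds Lama3 and Lamb3 at 3.59 and 4.97.

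Among the laminin receptors, Itga3, the alpha chain of the laminin-332 and laminin-511 receptor alpha 3 beta 1, was raised in clusters 3, 6 and 9, the clusters in which Lama5 was raised. Its folds by the authors' deposited table were 2.22, 3.54 and 3.15, and it was listed in no other cluster. Itgb4, the chain that joins laminin to keratin filaments in the hemidesmosome, was raised in cluster 9 at 2.81, in cluster 6 at 2.80 and in cluster 2 at 2.52 by the authors' deposited table. It was listed in clusters 5 and 3 at 1.71 and 1.67 by the authors' deposited table. By p it was the 34th gene of cluster 9 and the 62nd of cluster 6.

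Itga6, the only alpha chain known to pair with beta 4, was listed in the same 5 clusters as Itgb4 and shared only cluster 2 with it as a cluster where both were raised. In clusters 6 and 9 its folds were 1.69 and 1.58 by the authors' deposited table, and in cluster 3 it was at 1.57, each with a p within the limit and a fold under 2. By p it was the 97th gene of cluster 6 and the 140th of cluster 9, so these calls turn on the fold limit. It was raised in cluster 5 at 3.13 and in cluster 2 at 2.07 by the authors' deposited table. Cluster 2 was thus the one cluster with both chains of alpha 6 beta 4 raised, at 2.07 and 2.52 by the authors' deposited table. That cluster also had 5 of 5 named red cell genes raised, with the globin gene Hbb-bs at 10.01 by the authors' deposited table, while 0 of 9 general epithelial genes were raised and only Krt8 was listed. The part of the red cell genes in the integrin folds was not tested.

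Itgb1, the beta chain shared by most matrix-binding integrins, was raised in no cluster. It was listed in cluster 6 at 1.59 and in cluster 5 at 1.88 by the authors' deposited table. Every alpha chain that pairs only with beta 1 was therefore without a raised partner in these clusters. Itga7, a laminin receptor chain best known from muscle, was listed in cluster 7 only, where it was raised at 67.6 by the authors' deposited table, above 98.5% of the genes listed there. Of the 6 pericyte and smooth muscle markers cluster 7 had Rgs5 raised and did not list Acta2, Myh11, Cspg4, Pdgfrb or Notch3. Of the general epithelial genes it had Cdh1 and Krt18 raised, at 2.74 and 2.81 by the authors' deposited table. Krt8 was listed there without being raised, and the other general epithelial genes were not listed.

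Of the 4 collagen receptor alpha chains, only Itga2 was raised, in the clusters where Lamb3 was raised. Its folds were 3.06 in cluster 9 and 2.80 in cluster 6 by the authors' deposited table, and it was listed in cluster 5 at 6.47 without being raised. Itga1, its neighbour on chromosome 13 with no protein-coding gene between them, was listed in clusters 5 and 6 at 6.33 and 2.996 by the authors' deposited table and was not raised. Itga10, a chain of cartilage, was listed in clusters 3, 5 and 9 at 6.46, 3.0 and 1.72 by the authors' deposited table. Itga11, a chain of fibroblasts that binds fibrillar collagen, was listed in clusters 3 and 6 at 4.60 and 2.91 by the authors' deposited table and not in the fibroblast-like cluster 11. Neither Itga10 nor Itga11 was raised in any cluster.

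The integrins that bind the RGD sequence of fibronectin, vitronectin or latent TGF-beta were spread over epithelial, fibroblast and white blood cell clusters. Itgb6, the epithelial chain that activates TGF-beta, was raised in cluster 3 at 7.87 and in cluster 6 at 2.62 by the authors' deposited table, and was listed in cluster 5 at 2.27. Itgb8, which also activates TGF-beta, was listed in cluster 11 only and was raised there at 22.9 by the authors' deposited table. Itgb5, a vitronectin receptor chain, was listed in 5 clusters, from 1.66 in cluster 11 to 4.02 in cluster 10 by the authors' deposited table, and was raised in cluster 6 alone, at 3.74. Their common alpha chain Itgav was raised in no cluster, with folds of 5.50 in cluster 8, 2.04 in cluster 11 and 1.80 in cluster 9 by the authors' deposited table.

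Itga5, the alpha chain of the fibronectin receptor, was the RGD receptor gene raised in the most clusters, 3 of 11. By the authors' deposited table it was at 3.67 in cluster 8, 2.50 in cluster 11 and 2.32 in cluster 4, and no epithelial cluster listed it. Fibronectin itself (Fn1) was raised in clusters 4 and 8, at 5.85 and 3.86 by the authors' deposited table, and was not listed in cluster 11. Itga2b and Itgb3, the chains of the platelet fibrinogen receptor, were each listed in 1 cluster and never together. Itga2b was at 13.7 in cluster 6 and Itgb3 at 17.1 in cluster 7 by the authors' deposited table, neither raised. Of the other 3 named platelet markers, Ppbp was listed in cluster 6, and cluster 7 listed none. Itga8, an RGD receptor chain of smooth muscle, was not named in the table.

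Each of the 9 leukocyte integrin genes was raised somewhere, in 15 pairs of a gene and a cluster, 13 of them in clusters 4, 8 and 10. Of all named genes, 78.0% were raised somewhere, and 18.6%, 6.36% and 4.90% in clusters 4, 8 and 10. Itgb2, the beta chain common to the beta 2 integrins, was raised in cluster 8 at 9.93 and in cluster 4 at 6.66 by the authors' deposited table. It was the 11th gene of cluster 8 by p and the 25th of cluster 4. Cluster 10, in which 6 of 6 neutrophil and 3 of 7 macrophage genes were raised, did not list it. Itgam, the alpha chain of the complement receptor of macrophages and neutrophils, was the only integrin raised in all 3 of these clusters. Its folds by the authors' deposited table were close to each other, at 5.24, 4.32 and 4.12 in clusters 8, 4 and 10.

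The other partners of Itgb2 separated the 3 clusters. Itgal, the alpha chain of the ICAM receptor LFA-1, was raised in cluster 8 at 11.4 and in cluster 4 at 2.23 by the authors' deposited table. Cluster 10 did not list it. Itgax (CD11c), used as a marker of dendritic cells and also one of the 6 dendritic genes above, was raised in cluster 10 at 5.94 and in cluster 8 at 2.79 by the authors' deposited table and was not listed in cluster 4. In cluster 10 Itgax was the only 1 of the 6 dendritic genes listed, while cluster 8 listed all 6. Both chains of alpha L beta 2 and of alpha M beta 2 were thus raised in clusters 4 and 8, and both chains of alpha X beta 2 in cluster 8. Over 24 known integrin pairs, clusters 4 and 8 had both chains raised for 3 pairs each, cluster 2 for 1 pair and every other cluster for 0. Of all named genes, taken singly, 18.6%, 6.36% and 2.89% were raised in clusters 4, 8 and 2. The pairs raised in cluster 8 all share Itgb2, as do alpha L beta 2 and alpha M beta 2 in cluster 4, so the pairs are not independent. Cluster 6 listed both chains of 6 pairs and raised both of none. Each of those 6 pairs holds Itgb1 or Itga6, which were both under the fold limit in cluster 6 (1.59 and 1.69).

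Itga4, the chain that binds VCAM1 and fibronectin, was raised in cluster 4 at 7.67 and in cluster 8 at 2.71 by the authors' deposited table. Its partner Itgb7, of the gut-homing receptor, was raised in cluster 4 at 4.62 by the authors' deposited table, so both chains of alpha 4 beta 7 were raised there. In clusters 8 and 10 Itgb7 was listed at 2.04 and 3.46, and in cluster 10 Itga4 at 4.15, by the authors' deposited table, none of them raised. Itgae (CD103), the chain that binds E-cadherin and marks T cells and dendritic cells lodged in epithelium, had the largest fold of any raised leukocyte integrin, 38.4 in cluster 10 by the authors' deposited table. It was listed in cluster 3 at 2.45 by the authors' deposited table and was not raised there. Cluster 10 also had Cd3e and Cd4 raised at 25.9 and 110.7 by the authors' deposited table and 5 of the 6 named T and NK genes raised in all. The part of those cells in the Itgae fold was not tested.

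**Figure D4:**
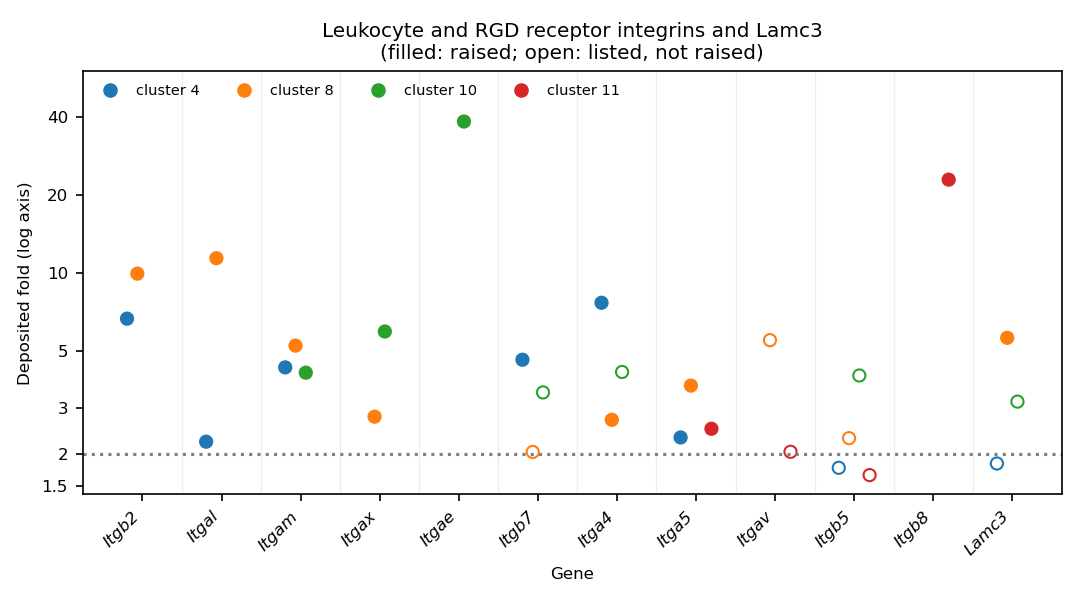
Deposited folds (log axis) of leukocyte and RGD receptor integrins and Lamc3 in clusters 4, 8, 10 and 11, 1 point per cluster, filled where the gene was raised and open where it was listed only, with the fold limit of 2 dotted. Itgam is filled in clusters 4, 8 and 10 at 4.12 to 5.24, Itgb2 in clusters 4 and 8 only, and Itgae stands at 38.4 in cluster 10.

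The remaining 2 leukocyte integrin genes were raised in epithelial clusters. Itgad, a beta 2 partner of macrophages, was listed in cluster 6 only and was raised there at 7.36 by the authors' deposited table, as the 4859th of 6664 genes by p. Itgb2l, a relative of Itgb2 known from neutrophils, was raised in cluster 9 at 8.30 by the authors' deposited table, as the 4773rd of 7131 genes, and was listed in cluster 3 at 3.75. Whether reads of Itgb2l are separable from those of Itgb2 was not examined. Clusters 6 and 9 listed 0 of the 7 macrophage and 0 of the 6 neutrophil genes, and neither listed Itgb2. Itga9, a chain that pairs with beta 1, was listed in clusters 5 and 10 at 1.97 and 2.21 by the authors' deposited table and was raised in neither.

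Several of the genes lie side by side in the genome. Itgam, Itgax and Itgad follow each other on chromosome 7 (128062640 to 128118491, 128129547 to 128150657 and 128154376 to 128223816 in GENCODE M21 on GRCm38), with gaps of 11.1 and 3.72 kb and no protein-coding gene between them. Itgam was raised in clusters 4, 8 and 10, Itgax in clusters 8 and 10 and Itgad in cluster 6. Laminin chains are long genes, and Lama5 (chromosome 2, 180176373 to 180225859) has 79 exons in its longest coding transcript of 11388 bases. Of the 37 genes, 11 share exon bases with another annotated gene. For Itga4, Itga7, Itgav, Itgb4, Lama2, Lama3 and Lamc3 that gene lies on the other strand only. Their reads are separable only if counted by strand, which was not examined here. Itga1, Itga10, Itgad and Itgam share bases with a gene on the same strand, so their reads may not be separable. Among these, Itgam shares bases on the same strand with Gm49368, which was itself raised in clusters 4 and 10 at 14.7 and 3.99 by the authors' deposited table. Itga1 shares bases on the same strand with Gm49395, which was raised in cluster 11 and listed in cluster 9 without being raised. Itga1 itself was listed in neither of those clusters, and whether its reads there were counted under Gm49395 was not tested.

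Lists of partner genes were counted in the same way, although each count is small. Of 10 named basement membrane partners of laminin, clusters 11 and 9 had 4 raised each and clusters 6 and 5 had 2 each, against the 17.0%, 26.6%, 20.3% and 4.32% of all named genes given above. Nidogen-1 (Nid1), which ties laminin to collagen IV, was at 160.4 in cluster 11 by the authors' deposited table and was listed in no other cluster. The collagen IV chain Col4a6 was at 31.2 in cluster 11, and perlecan (Hspg2), a heparan sulfate proteoglycan, at 22.1 in cluster 5 and 2.34 in cluster 11, by the authors' deposited table, each raised. Agrin (Agrn), which binds laminin, was raised in clusters 9 and 6 at 3.81 and 3.43 by the authors' deposited table. Netrin-4 (Ntn4), which binds laminin gamma chains, was raised in cluster 6 at 8.97 by the authors' deposited table. Of the 3 named hemidesmosome genes, Cd151 and plectin (Plec) were raised in cluster 9 at 2.66 and 2.55, and dystonin (Dst) in clusters 2 and 11 at 3.63 and 3.26, by the authors' deposited table. Plec was also raised in cluster 5. Cluster 9 thus had 2 of the 3 raised, where 26.6% of all named genes were. Cluster 6 had 0 of the 3 raised, where 20.3% of all named genes were, and listed Cd151 at 1.94 by the authors' deposited table, under the fold limit.

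Inside the cell, 15 of 17 integrin activators and adaptors were raised in at least 1 cluster. Of all named genes, 78.0% were raised in at least 1 cluster. Of the 17, cluster 11 had 7 raised (17.0% of all named genes were), cluster 4 had 6 (18.6%), cluster 9 had 6 (26.6%), cluster 8 had 5 (6.36%), cluster 6 had 4 (20.3%) and cluster 10 had 0 (4.90%). Cluster 7 had 3 raised (3.42%), clusters 1 and 3 had 1 each (1.82% and 4.001%), and clusters 2 and 5 had 0 (2.89% and 4.32%). The counts in clusters 6 and 9 were thus close to their background. The 3 kindlins, which bind beta chain tails, differed by cluster. Kindlin-3 (Fermt3) of blood cells was raised in clusters 1, 4 and 8 at 5.54, 2.85 and 2.60 by the authors' deposited table. Kindlin-1 (Fermt1) of epithelium was raised in clusters 7 and 9 at 4.09 and 2.45, and kindlin-2 (Fermt2) in clusters 11 and 9 at 24.3 and 4.14, by the authors' deposited table. Talin-1 (Tln1), which switches integrins on, was raised in clusters 8, 4 and 11 at 3.54, 3.03 and 2.13, and talin-2 (Tln2) in cluster 11 at 28.8, by the authors' deposited table. The integrin-linked kinase Ilk was raised in cluster 9 at 11.4 by the authors' deposited table, and vinculin (Vcl) in clusters 9 and 6 at 5.49 and 3.34.

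Of the 5 adhesion kinases, 3 were raised in cluster 4, where 18.6% of all named genes were, and the focal adhesion kinase Ptk2 was raised in no cluster. Its relative Ptk2b was raised in clusters 10 and 4 at 7.70 and 2.04 by the authors' deposited table. The kinase Fyn was raised in clusters 8, 11 and 4 at 4.07, 3.22 and 2.55, and Csk, which restrains Src family kinases, in clusters 11 and 4 at 3.68 and 3.05, by the authors' deposited table. The receptors that bind laminin without being integrins were raised in clusters 6, 7 and 9. Bcam, a laminin alpha 5 receptor, was at 2.42 in cluster 6 and 2.37 in cluster 9, dystroglycan (Dag1) at 2.02 in cluster 6, and the syndecans Sdc4 and Sdc1 at 3.42 and 2.44 in cluster 7, by the authors' deposited table. Of the ligands of RGD receptors, fibrillin-1 (Fbn1) and tenascin-C (Tnc) were raised in cluster 11 at 503.7 and 153.4 by the authors' deposited table. Of the ligands of leukocyte integrins, Icam1 was raised in cluster 10 at 53.3, Icam2 in cluster 4 at 7.47, Vcam1 in cluster 11 at 3.42 and Cdh1 in clusters 5 and 7 at 3.94 and 2.74, by the authors' deposited table.

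**Figure D5:**
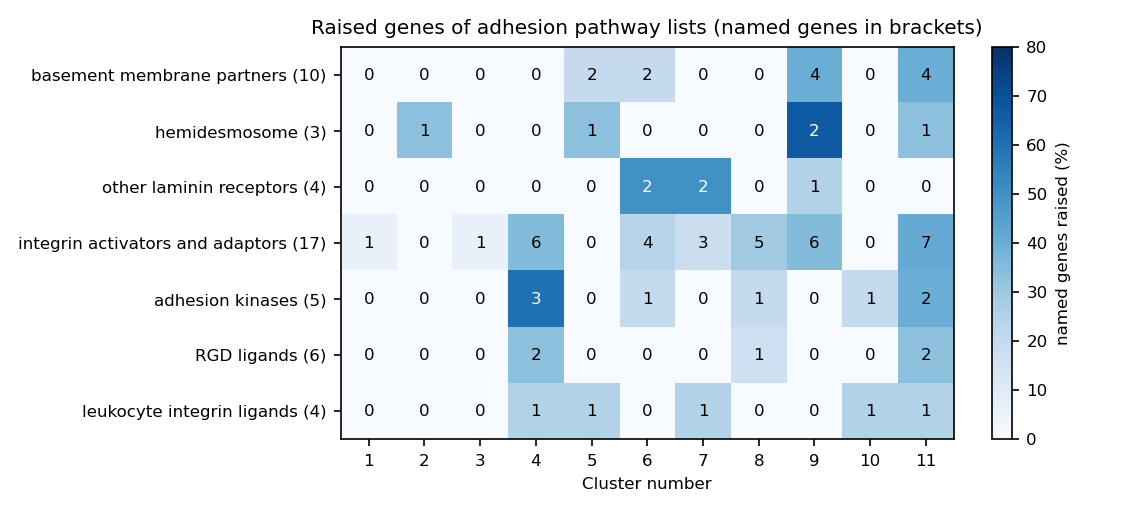
Number of raised genes of 7 adhesion pathway lists (rows, with the number of genes named in the table in brackets) in the 11 clusters (columns), coloured by the percentage of named genes raised. Integrin activators and adaptors show 4 to 7 raised genes in clusters 4, 6, 8, 9 and 11 and 0 in clusters 2, 5 and 10.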

How the data were processed

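Cells of dissociated tumors were encapsulated in droplets (inDrop) and sequenced singly from TruDrop libraries, as the labels' protocols state. The submitters' processing notes name mm10, STAR 2.7.3a, Partek and DESeq2 3.5 without their roles. Not given in the sources used here is how cells were filtered, cleared of doublets and clustered. The values are a linear fold (a ratio) and a p-value for each gene and cluster, as the authors deposited them, per the file headers. The deposited p-value compares cells and not animals, so it served as a filter and is not printed, and its adjustment is not stated. No test was run. Genes were counted as raised at a fold of at least 2 and a p of at most 0.05, beside the percentage of all 18319 named genes raised. The alternatives were fold limits of 1.5 and 3, a p limit of 0.01 and no p limit. Per-sample values fill 0 columns of the table.

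The genes and lists were chosen with earlier results of these data known. The rule for named genes took every laminin or integrin gene raised in any cluster, the 3 of largest fold per cluster, and the 3 largest raised folds of each of 7 pathway lists. Further list members, and the 5 promoters, were chosen after their values were seen. Positions are 1-based, from GENCODE M21 (GRCm38, the same assembly as mm10), matched by symbol for all 37 genes, and promoters are from RefSeq on GRCm38.p6. The counting was tested on a simulated table in which every gene met both limits or neither, so genes that met a single limit were not tried. Python 3.11.15, pandas 2.3.3 and matplotlib 3.10.9 were used. One gene is counted but not reported by name here.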

Additional observations from a re-analysis of the deposited data

How the results depend on the processing

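Of the 14 counts of raised laminin and integrin genes, 13 stayed within 1.5 times at a fold of at least 1.5, 10 at a fold of at least 3, 13 at a p of at most 0.01 and 7 with no limit on p. At a fold of at least 1.5 the count moved in cluster 5, from 1 to 2 (5.41% against 5.07% of all named genes). At a fold of at least 3 it moved in cluster 2 (from 2 to 0), cluster 6 (from 12 to 7) and cluster 9 (from 8 to 4), and the integrin pairs of a gene and a cluster went from 33 to 21. The 0 genes of cluster 2 at that fold stand against 1.92% of all named genes, where the count was above its background before. In cluster 6 the share at that fold was 18.9%, still above that of all named genes (2194 of 18319). In cluster 9 it was 10.8% against 14.1%, still under its background. At a p of at most 0.01 the count moved in cluster 3, from 3 to 1, a share still above the 1.98% of all named genes. With no limit on p it moved in clusters 1 (0 to 1), 3 (3 to 11), 5 (1 to 10), 7 (1 to 2) and 10 (3 to 9), and the laminin and integrin pairs went from 16 to 26 and from 33 to 55. Without that limit the shares in clusters 3, 5 and 10 were 29.7%, 27.0% and 24.3%, against 22.0%, 16.3% and 15.9% of all named genes, so that cluster 5 went from under to above its background. Of all genes listed in clusters 3, 5 and 10, 16.0%, 24.7% and 27.0% had a p within the limit. No paired analysis was possible because the table has no values per sample. Replicates could not be left out for the same reason, and tumor type, animal and library cannot be told apart.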

Other observations

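Npnt, which encodes nephronectin, a matrix ligand of integrin alpha 8 beta 1, was chosen after its values were seen. It stood 2nd by p among the genes of cluster 9, at 2.996-fold by the authors' deposited table. It was also raised in clusters 3 and 6, at 3.73 and 3.06 by the authors' deposited table, and was listed at 1.85 in cluster 5. Itga8, the alpha chain of its receptor, was not named in the table.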
